A study of Mus musculus with 8 samples.

Results

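NF-kB feedback and acute-phase genes were followed in 4T1 cells after acetate treatment. The 4T1 line comes from a mouse mammary carcinoma and forms lung metastases in mice. The 10 genes chosen by name were Lcn2, C3, Saa3, Cfb, Nfkbia, Tnfaip3, Nfkb2, Relb, Icam1 and Birc3. Of these, 9 were among the 20189 genes of the expression table, and Cfb, which encodes complement factor B, was not analysed here. Wild-type 4T1 cells had been grown in DMEM with 10% FBS, Hepes and antibiotics, and both groups shared this medium. They received 5 mM acetate (n = 4 libraries) or water as vehicle (n = 4 libraries) for 48 h before RNA was taken. Acetate is a source of acetyl-CoA, and the comparison asks which transcripts differ when the cells receive more of it. The libraries carry numbers 1 to 4 in each group, and each acetate library was compared with the vehicle library of the same number. The study's legends count the replicates of cultured cells as independent experiments. All were made with a single cell line, so p-values speak for that line only.

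NF-kB transcription factors are dimers of Rel family proteins that IkB proteins hold in the cytoplasm of resting cells. Signals from tumor necrosis factor, interleukin-1 or Toll-like receptors activate the IKK kinase complex, which marks IkB for degradation and frees the dimers to enter the nucleus. The target genes include the inhibitors that shut the pathway off again, among them Nfkbia (IkB-alpha) and Tnfaip3 (the ubiquitin-editing enzyme A20), and the subunits Nfkb2 and Relb that serve the slower non-canonical branch. Lcn2, C3 and Saa3 encode secreted acute-phase or complement proteins. Such genes are textbook targets of NF-kB together with C/EBP factors and STAT3, which the interleukin-6 family activates, and mammary tumor cells are known to make lipocalin 2.

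Sequences in front of the start sites are shown first, with the matches they hold to motifs of factors known to act on such genes. They come from RefSeq on build GRCm38.p6, in which 8 of the 10 genes had an entry, all but Cfb and Relb. The 250 bases before each start were searched on both strands for the NF-kB consensus site, for a looser NF-kB pattern that keeps only the outer G and C runs of that consensus, for the C/EBP pattern TTNNGCAA and for the STAT pattern TTCNNNGAA, and the patterns were picked after the expression values were known. Each of the 3 secreted genes held a C/EBP match and none held the NF-kB consensus, while Lcn2 and C3 held the looser NF-kB pattern. The match lay at bases -216 to -209 of Lcn2 (chr2:32387798-32387989, minus strand, shown to base -59), at -45 to -38 of C3 (chr17:57228137-57228386, minus strand) and at -99 to -92 of Saa3 (chr7:46715701-46715926, minus strand, shown to base -25). Written 5′ to 3′ with the C/EBP match in capitals, these read as follows.
Lcn2: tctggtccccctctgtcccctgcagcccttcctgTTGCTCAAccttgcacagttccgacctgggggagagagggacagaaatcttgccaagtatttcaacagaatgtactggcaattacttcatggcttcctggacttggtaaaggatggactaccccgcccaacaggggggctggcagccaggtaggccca
C3: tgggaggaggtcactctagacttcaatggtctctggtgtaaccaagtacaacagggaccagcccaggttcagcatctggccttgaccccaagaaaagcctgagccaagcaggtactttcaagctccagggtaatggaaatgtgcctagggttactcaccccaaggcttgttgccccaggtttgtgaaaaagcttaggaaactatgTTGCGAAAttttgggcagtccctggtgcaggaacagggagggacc
Saa3: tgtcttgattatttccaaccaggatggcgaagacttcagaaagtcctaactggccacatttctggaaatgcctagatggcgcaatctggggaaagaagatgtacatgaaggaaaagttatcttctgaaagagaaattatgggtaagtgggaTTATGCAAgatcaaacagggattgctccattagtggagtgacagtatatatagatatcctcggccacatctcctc

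The feedback genes Nfkbia and Tnfaip3 and the subunit gene Nfkb2 each held the NF-kB consensus. In Nfkbia (chr12:55492648-55492897, minus strand) it lay at -29 to -20. The first Tnfaip3 start had matches at -125 to -116 and -12 to -3, and the first Nfkb2 start had overlapping matches at -39 to -30 and -38 to -29 and another at -11 to -2. All 250 bases of this Nfkb2 window are annotated as untranslated exon bases, so its matches lie in annotated transcribed sequence. Such bases number 110 in the Tnfaip3 window, 58 in that of Lcn2 and 24 in that of Saa3. The Lcn2 and Nfkb2 windows lie inside the gene spans given below. Icam1 (chr9:21015690-21015939, plus strand) held a STAT match at -42 to -34, without the NF-kB consensus in this window. Birc3 held neither the consensus nor a C/EBP or STAT match. The looser NF-kB pattern was found in 7 of the 8 genes, all but Saa3. The consensus match, or the STAT match in Icam1, stands in capitals below, and 30 bases are given for Tnfaip3 (chr10:19015516-19015545, minus strand) and Nfkb2 (chr19:46304688-46304717, plus strand).
Nfkbia: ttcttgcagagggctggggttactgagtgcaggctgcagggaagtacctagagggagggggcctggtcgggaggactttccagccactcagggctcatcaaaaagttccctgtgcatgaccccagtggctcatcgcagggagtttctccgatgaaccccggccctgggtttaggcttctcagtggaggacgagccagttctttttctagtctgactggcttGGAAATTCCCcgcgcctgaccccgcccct
Icam1: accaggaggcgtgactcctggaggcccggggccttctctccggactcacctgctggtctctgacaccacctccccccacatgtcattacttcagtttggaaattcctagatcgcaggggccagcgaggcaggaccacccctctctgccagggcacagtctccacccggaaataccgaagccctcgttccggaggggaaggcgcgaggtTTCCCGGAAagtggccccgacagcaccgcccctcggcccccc
Tnfaip3: gactcacgcgGGGACACCCCggggcgggac
Nfkb2: ggatcgtcacGGGAATTCCCCccctcgggg

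For comparison, among 32851 mouse promoters of the same length 7.25% held the NF-kB consensus, 45.8% the looser pattern, 9.56% the C/EBP pattern and 7.02% the STAT pattern. Every consensus match also counts among the looser matches. A match describes the letters only and does not show that a factor binds there.

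**Figure D1:**
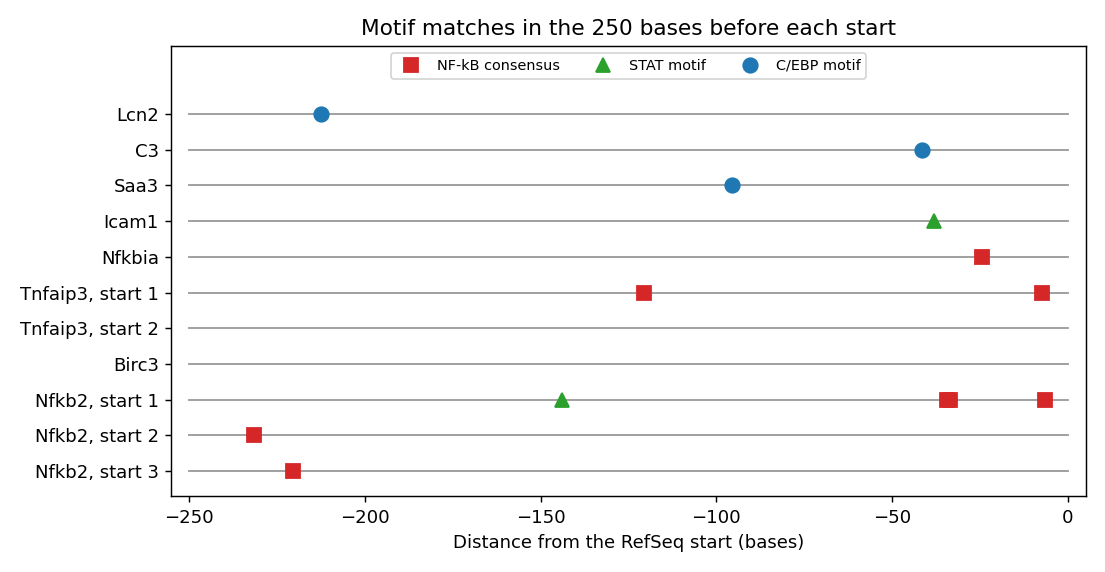
Positions of motif matches (symbols) in the 250 bases before each RefSeq start (grey lines), by distance from the start in bases. The C/EBP matches are in Lcn2, C3 and Saa3, the NF-kB consensus matches in Nfkbia, Tnfaip3 and Nfkb2, and the STAT matches in Icam1 and at the first Nfkb2 start.

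The libraries held 19.9 to 29.3 M recovered reads (M, mega). Values are normalised read counts, called units, scaled so that each library sums to 20000000. Thus 1 read is worth from 0.682 units (vehicle replicate 4) to 1.005 units (vehicle replicate 3). The 2 libraries of replicate 1 stood apart from the 6 others in several of these genes. In vehicle, the mean of replicates 2 to 4 was 25.8 times replicate 1 for Lcn2, 8.83 times for C3 and 7.74 times for Saa3. The same ratio was 2.08 for Icam1, 1.47 for Nfkbia and 1.43 for Birc3, and it lay between 0.835 and 1.03 for Nfkb2, Tnfaip3 and Relb. The replicate number held 73.4% (Tnfaip3) to 96.8% (Nfkb2) of the sum of squares of each gene, against a median of 84.8% over 18188 genes. The treatment share was largest for Relb, at 13.2%, and for Icam1, at 11.7%. Changes without replicate 1 are therefore given beside each gene.

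The markers of mammary carcinoma epithelium were all present, and their summed level was 44747 to 66048 units in vehicle and 47891 to 68528 in acetate, higher in 3 of 4 pairs. Of the 6 markers Krt19 (0.40 on the log2 scale), Cldn4 (0.30) and Cdh1 (0.15) rose, and Epcam, Krt8 and Krt18 did not pass the test. Of 10 leukocyte markers 7 were in the table, and the defining genes Ptprc (at most 3.02 units) and Lyz2 (at most 2.16) were near 0 in every library. Cd68, a lysosomal protein gene, made up most of the list's sum, at 66.7 to 191 units, and did not pass the test (0.02, adjusted p = 0.952). The sum over the list ran from 108 to 217 units in vehicle and from 116 to 231 in acetate, and it was higher in acetate in 4 of 4 pairs. Csf1r, the CSF-1 receptor, was the one leukocyte marker that changed, by 1.08 on the log2 scale (mean of 20.8 units, adjusted p = 0.00774). For fibroblasts 5 of 8 markers were in the table. Their sum of 234 to 1527 units in vehicle and 399 to 2005 in acetate, higher in 4 of 4 pairs, was nearly all Pdgfra, while the collagen gene Col1a2 stayed at or below 3.82 units. The growth factor receptor genes Pdgfra (0.52 on the log2 scale, adjusted p = 3.72e-04) and Pdgfrb (1.40, 0.0119, mean of 16.7 units) rose. Endothelial markers summed to at most 10.5 units. In such bulk RNA, fewer cells of a type and less RNA per cell cannot be told apart, and the part of these markers in the results was not tested.

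Among the 9 genes analysed, the secreted proteins Lcn2 and C3 and the adhesion molecule Icam1 rose with acetate, Relb fell, and Saa3, Nfkbia, Tnfaip3, Birc3 and Nfkb2 did not pass the test. These are 4 of 9 genes (44.4%), 3 of them higher, where 8.64% of all 20189 genes were called (1209 genes or 5.99% higher, 535 genes or 2.65% lower) in limma with the replicate number as a block. With a filter at a mean of 10 units, which all 9 pass, limma called 5 of 9 (55.6%), beside 17.0% of 13292 genes. Of the 9 genes 3 were higher in 4 of 4 pairs (16.7% of all genes) and 2 were lower in 4 of 4 pairs (11.4%). The count of 4 became 2 without replicate 2, 0 without replicate 3 and 2 without replicate 4, and the share over all genes fell to 3.06%, 2.03% and 2.67% in the same fits. The median log2 change was 0.06 over the 9 genes and 0.02 over all genes. When libraries were treated as unpaired, limma called 0 of the 9 genes and 0 of all genes, with adjusted p = 1.00 for each of the 9. Unadjusted p-values under 0.05 were then found for 353 genes of the whole table and for 0 of the 9, whose lowest was 0.312 for Relb. In no gene of the 9 were the 2 groups free of overlap, against 1.65% of all genes. The calls thus concern differences within pairs, which were smaller than the spread between replicates.

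**Figure D2:**
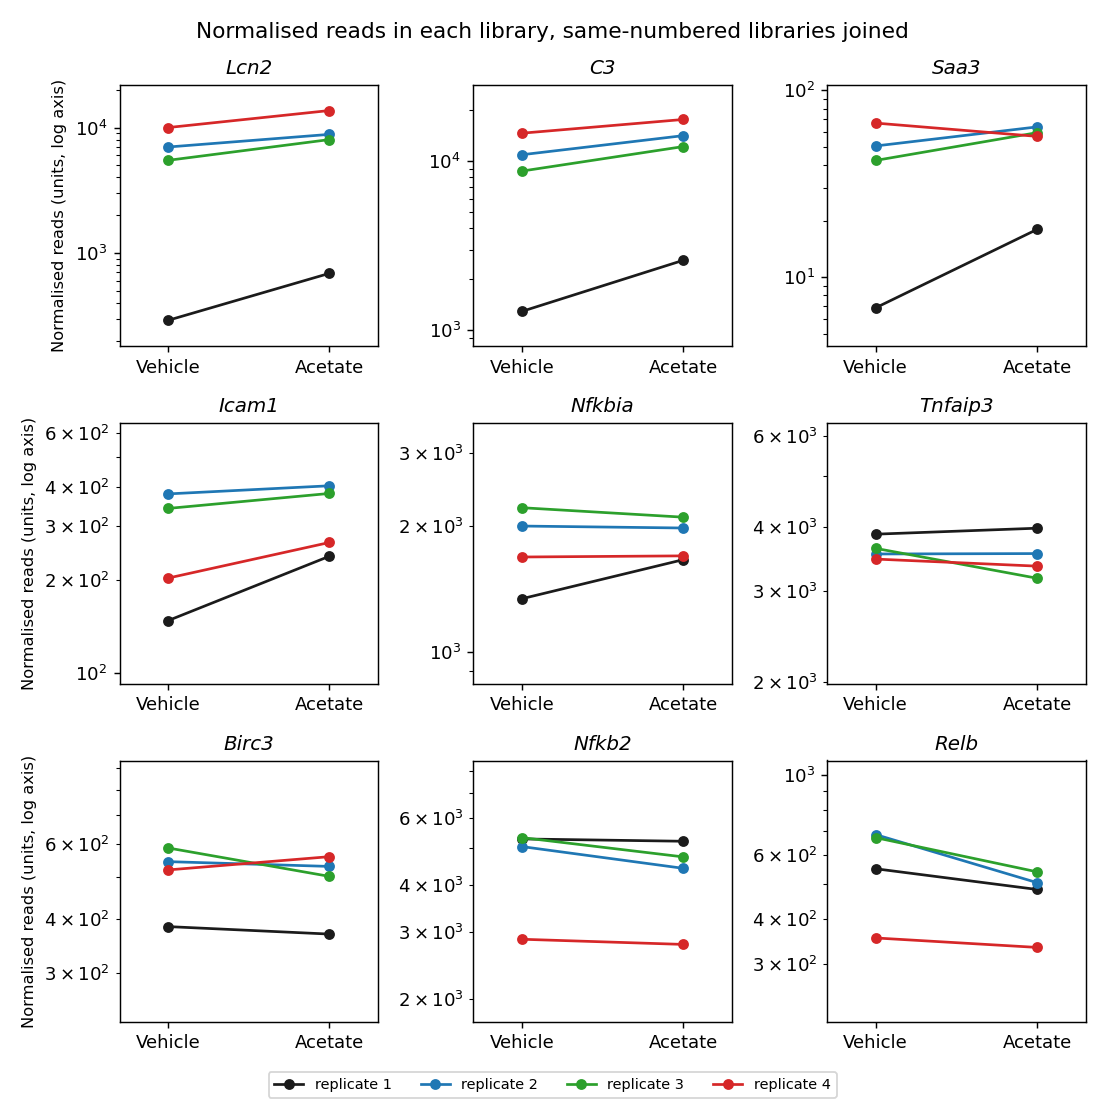
Normalised read counts (units, log axis) of the 9 genes in each library, with lines joining the vehicle and acetate libraries of one replicate number. The 4 lines of Lcn2, C3 and Icam1 all go up and those of Nfkb2 and Relb all go down, and replicate 1 (black) lies far below the others in Lcn2, C3 and Saa3.

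Lcn2 encodes lipocalin 2, an iron-siderophore binding protein of the acute phase (ENSMUSG00000026822, chr2:32384633-32388252, minus strand, protein-coding). It had 290.1, 6994, 5476 and 9997 units in vehicle replicates 1 to 4 and 687, 8822, 8016 and 13667 units in acetate. Acetate was higher in each pair, although the ranges of the groups overlapped. The mean was 5689 ± 4060.0 units in vehicle and 7798 ± 5357 in acetate (SD, n = 4 each). Within pairs the log2 change was 0.64 with an SE of 0.11 (95% interval 0.41 to 0.88, 1.56-fold, adjusted p = 0.00431, limma with the block), made of 1.24, 0.34, 0.55 and 0.45. The low pair 1 thus showed the largest of the 4 changes. Without replicate 1 the change was 0.45 and the adjusted p 0.000139, while the call was lost without replicate 3 (adjusted p = 0.0705) and without replicate 4 (0.0576).

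C3, the central component of complement (ENSMUSG00000024164, chr17:57203970-57228136, minus strand, protein-coding), followed Lcn2 closely. Its vehicle libraries held 1293, 10903, 8728 and 14614 units and its acetate libraries 2592, 14137, 12185 and 17618 units. Each acetate library was above its own vehicle library, by 1.00, 0.37, 0.48 and 0.27 on the log2 scale. The mean went from 8884 ± 5614 to 11633 ± 6432 units, a log2 change of 0.53 with an SE of 0.09 (95% interval 0.34 to 0.72, 1.45-fold, adjusted p = 0.00379). The change was 0.38 without replicate 1 (adjusted p = 0.000261), and the adjusted p was 0.0700 without replicate 3.

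Saa3 encodes a serum amyloid A protein that is made outside the liver (ENSMUSG00000040026, chr7:46711998-46715700, minus strand, protein-coding). It was a low gene, with 9 to 98 recovered reads per library. Vehicle libraries held 6.87, 50.5, 42.2 and 66.9 units and acetate libraries 18.1, 63.8, 59.5 and 56.8 units. Acetate was higher in pairs 1 to 3 and lower in pair 4, with differences of 1.28, 0.33, 0.48 and -0.23 on the log2 scale. The mean difference of 0.46 (SE 0.22, 95% interval -0.01 to 0.94) did not pass the test (adjusted p = 0.235), and without replicate 1 it was 0.19. A difference of the size seen in Lcn2 lies inside the interval. Saa1, a paralog whose reads could be shared with Saa3, stayed at or below 2.16 units.

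Icam1 encodes an adhesion molecule that binds leukocyte integrins (ENSMUSG00000037405, chr9:21015985-21028817, plus strand, protein-coding). It had 148, 381, 342 and 203 units in vehicle and 239, 405, 382 and 265 units in acetate. All 4 pairs were higher in acetate, by 0.69, 0.09, 0.16 and 0.38 on the log2 scale, and the group ranges overlapped. The mean rose from 269 ± 111 to 323 ± 82.7 units, with a log2 change of 0.33 (SE 0.09, 95% interval 0.14 to 0.52, 1.26-fold, adjusted p = 0.0409). This call was lost when any 1 replicate was left out, with adjusted p of 0.102, 0.0582, 0.127 and 0.217 for replicates 1 to 4, and the change was 0.21, 0.41, 0.39 and 0.31 in turn. The antisense gene Gm47079 overlaps Icam1 and averaged 3.67 units.

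**Figure D3:**
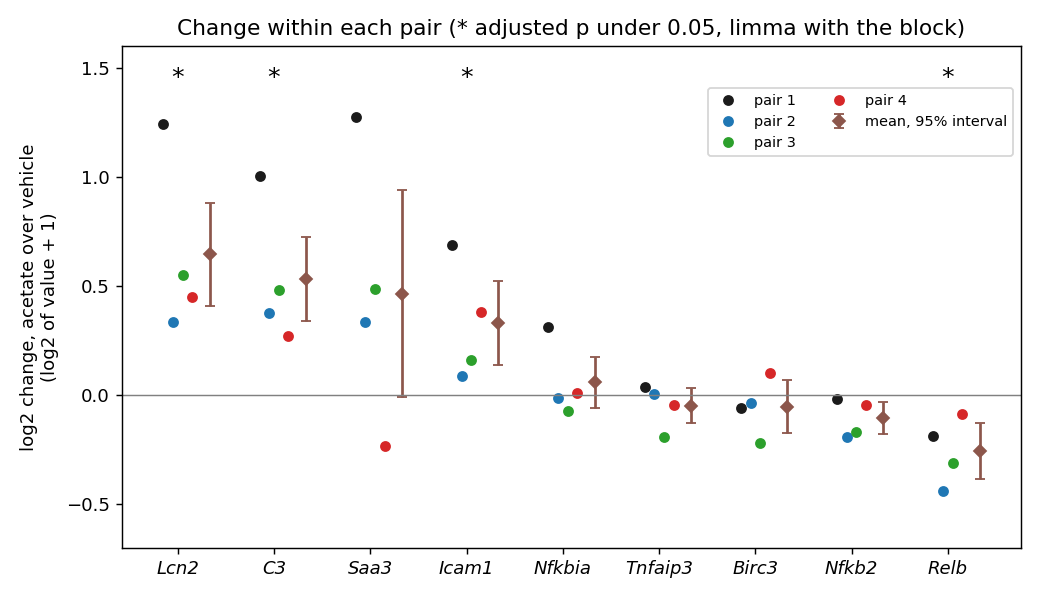
Log2 change of acetate over vehicle in each pair (points) with the mean and 95% interval from limma with the replicate block (diamonds and bars, n = 4 pairs). Lcn2, C3 and Icam1 lie above 0 and Relb below 0 with adjusted p under 0.05 (asterisks), and pair 1 has the largest change in Lcn2, C3, Saa3, Icam1 and Nfkbia.

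The feedback inhibitors showed no change past the test. Nfkbia (ENSMUSG00000021025, chr12:55489410-55492647, minus strand, protein-coding) encodes IkB-alpha, which binds NF-kB dimers and takes them out of the nucleus. It had 1339.9, 2003, 2217 and 1688 units in vehicle and 1663, 1981, 2104 and 1698 in acetate. Pair 1 differed by 0.31 on the log2 scale and the other pairs by -0.02, -0.08 and 0.01. The mean difference was 0.06 (SE 0.05, 95% interval -0.06 to 0.17, adjusted p = 0.590), and it was -0.03 without replicate 1.

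Tnfaip3 (ENSMUSG00000019850, chr10:19000910-19015657, minus strand, protein-coding), which encodes A20, was the steadiest of the genes across libraries. It held 3867, 3540.3, 3630.0 and 3461 units in vehicle and 3971, 3547, 3178 and 3354 in acetate. The difference of -0.05 (SE 0.04, 95% interval -0.13 to 0.03, adjusted p = 0.480) was made of 0.04, 0.00, -0.19 and -0.05, and it was -0.08 without replicate 1 (adjusted p = 0.273). Birc3 (ENSMUSG00000032000, chr9:7848699-7873186, minus strand, protein-coding) encodes the ubiquitin ligase cIAP2, which acts in TNF receptor signaling. It had 384, 544, 586 and 521 units in vehicle against 369, 531, 503 and 559 in acetate, lower in 3 of 4 pairs. The difference was -0.05 (SE 0.05, 95% interval -0.17 to 0.07, adjusted p = 0.634), the same without replicate 1 (adjusted p = 0.700). The intervals of Nfkbia, Tnfaip3 and Birc3 end at 0.17, 0.03 and 0.07 on the log2 scale, so a rise as large as the 0.64 of Lcn2 lies outside each of them. Birc2, the neighboring paralog of Birc3, gave -0.04 (adjusted p = 0.615).

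Both subunit genes of the non-canonical branch were lower in acetate in 4 of 4 pairs. Relb (ENSMUSG00000002983, chr7:19606217-19629438, minus strand, protein-coding), which encodes the RelB subunit, had 550.4, 684, 671 and 355 units in vehicle and 483, 504, 539.8 and 334 in acetate. Replicate 4 was the lowest library of each group. The mean fell from 565 ± 152 to 465 ± 90.4 units, with a log2 change of -0.26 (SE 0.06, 95% interval -0.38 to -0.13, 0.837-fold, adjusted p = 0.0187). It was -0.28 without replicate 1 (adjusted p = 0.0269), and the call was lost without replicate 2 (-0.20, adjusted p = 0.130) and without replicate 3 (-0.24, adjusted p = 0.150).

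Nfkb2 (ENSMUSG00000025225, chr19:46304320-46312385, plus strand, protein-coding) encodes p100, the precursor of p52, which pairs with RelB. Its vehicle libraries held 5291, 5050.0, 5334 and 2870.4 units and its acetate libraries 5217, 4423, 4742 and 2781 units. Replicate 4 was again low, with a vehicle value 0.553 times the mean of replicates 2 and 3, and the same ratio was 0.524 for Relb and 0.563 for Icam1. The difference within pairs was -0.11 (SE 0.03, 95% interval -0.18 to -0.03, adjusted p = 0.0755), which did not pass the test. It passed with edgeR on recovered reads (-0.12, adjusted p = 0.0140), with DESeq2 (-0.13, 0.0415), with median-of-ratios scaling (0.0370) and without replicate 1 (-0.14, 0.0377). Psd and the noncoding AC114539.1 overlap Nfkb2 on the other strand and averaged 59.3 and 98.7 units.

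On a per-length scale the vehicle levels, in units per kb of annotated exon, ran from Lcn2 (2169 ± 1548) and C3 (1727 ± 1092) through Nfkbia (1125 ± 237), Nfkb2 (1011 ± 258), Tnfaip3 (502 ± 24.3), Relb (145 ± 39.2), Birc3 (102 ± 17.5) and Icam1 (61.6 ± 25.4) to Saa3 (16.0 ± 9.72). Among neighbors in this order, Lcn2 and C3, C3 and Nfkbia, Nfkbia and Nfkb2, Relb and Birc3, and Birc3 and Icam1 overlapped in their ranges over the 4 vehicle libraries. In replicate 1 the order differed, since Lcn2 was at 110.6 and C3 at 251 units per kb. These levels put C3 at the 98.8th and Lcn2 at the 97.7th percentile of all genes by mean units, and Saa3 at the 44.5th.

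Across the 8 libraries some of the genes had similar profiles, given here as a description since libraries share replicate numbers. Pearson's r of log2 values was 0.998 between Lcn2 and C3, 0.978 between Lcn2 and Saa3 and 0.984 between C3 and Saa3. Nfkb2 and Relb had an r of 0.901, and Nfkbia and Icam1 one of 0.927. Birc3 had an r of 0.908 with Lcn2, 0.885 with C3 and 0.840 with Saa3. Lcn2 went against Tnfaip3 (-0.827) and Nfkb2 (-0.577). The genes most like the mean profile of the 9 were Zfp946 (0.990), Irf3 (0.985), Taf6 (0.981), Mmp23 (0.981) and Hgs (0.978), over the same 8 libraries, and none of these passed the treatment test. Mmp23 was low, with a mean of 13.9 units. High values of r were common over these libraries. Among 13254 genes compared, the acute-phase gene Cp reached 0.987 with Lcn2 and stood at the 96.8th percentile. The complement regulator gene Cd46, at 0.927, stood only at percentile 77.1, and the 0.908 of Birc3 was lower still.

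The other genes of the pathway were read from lists by role, which were chosen with earlier results of these data known. Of 126 such genes 25 passed the test (19.8%), 23 higher (18.3%) and 2 lower (1.59%) in acetate, beside 8.64%, 5.99% and 2.65% of all genes. In the list of NF-kB subunits, 1 of 5 genes was called (20.0%), and that gene was Relb. Nfkb2 joined it without replicate 1, with the filter at a mean of 10 units, with DESeq2 and with median-of-ratios scaling (2 of 5), Nfkb2 and Rel did with edgeR (3 of 5), and without replicate 2 or replicate 3 the count was 0. Rel, which encodes c-Rel, differed by -0.19 (adjusted p = 0.0917, and 0.0216 with edgeR), Rela by -0.03 (0.645) and Nfkb1 by -0.00 (0.978). Thus 0 of the 5 subunits had a log2 change above 0, beside 11102 of all 20189 genes. It was 1 of 5 without replicate 2 and without replicate 3. Among 16 IkB proteins and feedback inhibitors limma called 0, DESeq2 0 and edgeR 1, limma with a pseudocount of 5 or with median-of-ratios scaling called 1 and with the filter 2, and 3 had an unadjusted p under 0.05 in limma. Their median was 0.02 (-0.00 with edgeR), with N4bp1 at 0.12 (adjusted p = 0.0503), the deubiquitinase gene Cyld at -0.11 (0.0615), Nfkbie at 0.09 (0.205) and Bcl3 at 0.07 (0.511). Of 25 genes of the IKK complex and its adaptors 1 was called (4.00%), the adaptor gene Myd88 at 0.16 (adjusted p = 0.0394, and 0.0926 without replicate 1, where Traf5 and Ripk1 were called instead). The count was 0 without replicate 2, replicate 3 or replicate 4, and with median-of-ratios scaling it was 2, both lower. The kinase gene Chuk (-0.12, adjusted p = 0.0551), Traf1 (-0.12, 0.0616) and Ripk1 (-0.12, 0.147) did not pass in limma. With edgeR the count was 2, both lower, namely Chuk (adjusted p = 0.0180) and Traf1 (0.0146). Myd88 had an adjusted p of 0.0560 with edgeR and 0.273 with DESeq2, which called 0 of the list.

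Of 18 receptors upstream of NF-kB 6 were higher (33.3%) and none lower, where 5.99% of all genes were higher. Tnfrsf1b, the TNF receptor 2 gene, rose by 0.29 (SE 0.04, adjusted p = 0.00216) and the interleukin-1 receptor gene Il1r1 by 0.24 (SE 0.04, 0.00591). Tnfrsf11a, which encodes RANK, rose by 0.63 (SE 0.13, 0.0138). Tlr1 rose by 1.04 (SE 0.21, 0.0106) from few reads, with 3.05, 22.8, 12.1 and 30.7 units in vehicle and 8.63, 37.2, 28.3 and 64.7 in acetate. All 4 changes were positive in 4 of 4 pairs, and all kept an adjusted p under 0.05 without replicate 1. The median over the 18 receptors was 0.17. The count was 2 without replicate 2 and 1 without replicate 3 or replicate 4. With the filter at a mean of 10 units and with edgeR the list had 8 higher and 1 lower. DESeq2 and median-of-ratios scaling gave 4 and 1, and leaving out replicate 1 gave 6 and 1. Tnfrsf12a, named after its values were seen, was at -0.14 in limma (adjusted p = 0.0562). It was called lower with edgeR (0.00694), with DESeq2 (0.0181) and without replicate 1 (0.00672).

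Acute-phase proteins were called in 5 of the 16 genes tested (31.2%), all higher, where 5.99% of all genes were higher, and the other 10 of the 26 listed genes were not analysed here. The list holds Lcn2 and Saa3. Slpi, which encodes a secreted protease inhibitor, had 369, 2045, 1854 and 3533 units in vehicle and 706, 3363, 3308 and 5200.0 in acetate. It was higher in each pair, and its log2 change of 0.76 (SE 0.05, adjusted p = 3.28e-05) came with a smaller error than that of Lcn2. Cp, the copper carrier ceruloplasmin, rose by 0.59 (SE 0.05, 1.01e-04), and Steap4, a metalloreductase gene, by 0.97 (SE 0.15, 0.00245). Ptx3, a long pentraxin, rose by 0.73 (SE 0.19, 0.0317), at 54.2, 16.3, 21.1 and 20.5 units in vehicle and 108, 32.3, 38.7 and 23.0 in acetate. Unlike Lcn2, Ptx3 was highest in replicate 1, and its call was lost without that replicate (adjusted p = 0.133). The median over the 16 genes was 0.41, and 14 of them had a log2 change above 0, beside 11102 of all 20189 genes. The others of the 16 apart, 10 genes had a mean of 10 units or more. Of these 10 genes 9 were above 0, with a median of 0.62, beside 7104 of 13292 genes. The count of called genes was 3 without replicate 3.

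**Figure D4:**
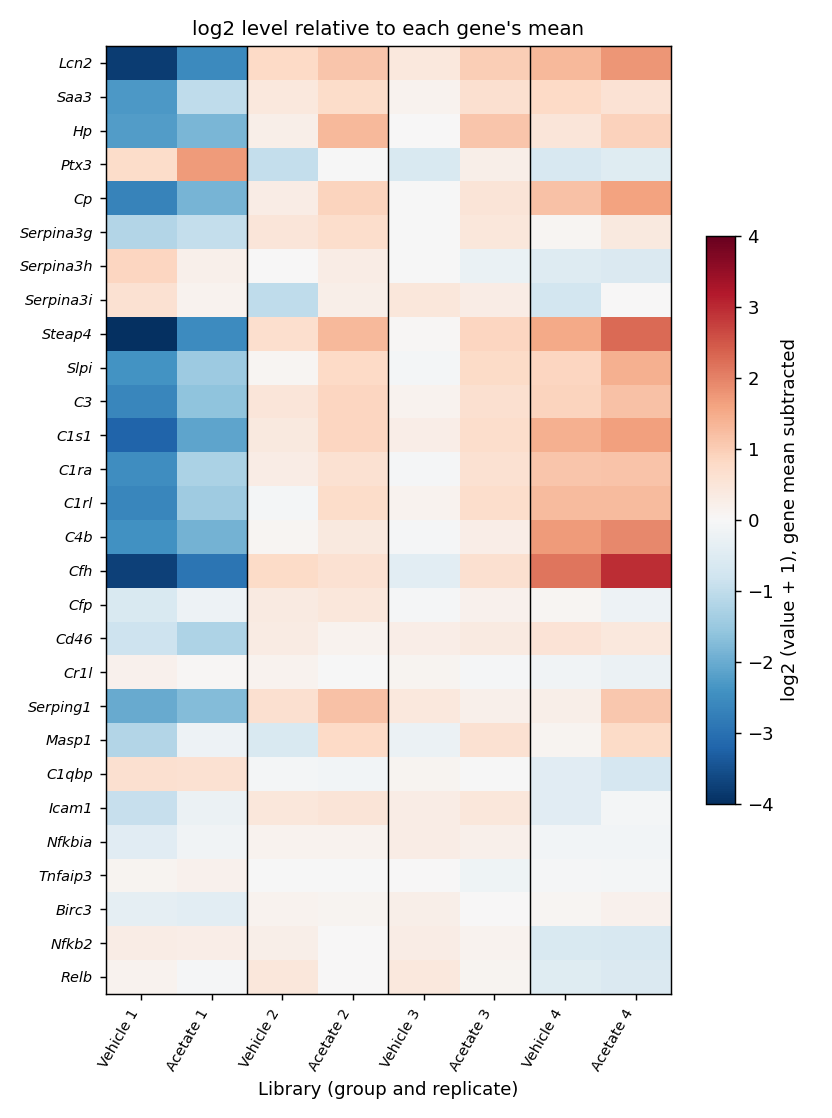
Log2 level of acute-phase and complement genes with a mean of 10 or more units, and of the other genes followed, in each library relative to the gene's mean of 8 libraries (color, log2 units). Replicate 1 is low for Lcn2, Cp, Steap4, Slpi and C3 and high for Ptx3, and within a pair the acetate library is higher for Lcn2, Cp, Steap4, Slpi and C3.

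Complement components and regulators were called in 5 of 16 genes tested (31.2%, against 8.64% of all genes), 4 higher and 1 lower, with a median of 0.23, and C3 is among them. Masp1, a protease gene of the lectin pathway, rose by 0.97 (SE 0.13, adjusted p = 0.00165). It had 31.3, 46.4, 60.3 and 77.1 units in vehicle and 62.0, 124, 110.4 and 122 in acetate, and the treatment share of its sum of squares was 54.9%. The genes of the C1 proteases, C1s1 (0.55, SE 0.11, 0.0118) and C1ra (0.54, SE 0.15, 0.0496), also rose, and C1ra did not pass without replicate 1 (0.32, adjusted p = 0.0968). Cr1l, a regulator that limits complement on the cell's own surface, fell by 0.14 on the log2 scale (adjusted p = 0.0484, and 0.0913 without replicate 1). The list's count was 3 without replicate 1, 1 without replicate 3, and 2 without replicate 2 or replicate 4.

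Of 15 genes of the interleukin-6 family and the C/EBP regulators 5 rose (33.3%, against 5.99% of all genes) and none fell, with a median of 0.14. Stat3 had 1271, 1703, 1576 and 2088 units in vehicle and 1448, 2170.3, 1944 and 2724 in acetate. It rose by 0.31 on the log2 scale (SE 0.04, adjusted p = 7.27e-04). The oncostatin M receptor gene Osmr rose by 0.36 (SE 0.06, 0.00378), the LIF receptor gene Lifr by 0.37 (SE 0.09, 0.0333) and the kinase gene Jak2 by 0.27 (SE 0.04, 0.00401). All of these were higher in 4 of 4 pairs and passed without replicate 1, while the count for the list was 3 without replicate 2 and 1 without replicate 3 or replicate 4. The factors Cebpb (0.14, adjusted p = 0.360) and Cebpd (-0.43, 0.339) and the STAT3 feedback inhibitor Socs3 (0.14, 0.120) did not pass, and were named after their values were seen.

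The last list, other NF-kB target genes, had 5 of 27 genes higher (Icam1 among them) and 1 lower (22.2% in all), with a median of 0.06. Nos2, which encodes inducible nitric oxide synthase, rose by 0.51 (SE 0.09, adjusted p = 0.00500), the prostaglandin E synthase gene Ptges by 0.20 (SE 0.04, 0.0111) and Tapbp, which loads peptides onto MHC class I, by 0.18 (SE 0.03, 0.00484). Plaur, the urokinase receptor gene, fell by 0.17 on the log2 scale (SE 0.03, 0.00856). The count was 3 without replicate 2 and 2 without replicate 3 or replicate 4. With edgeR 7 of 27 were higher and 4 lower, and with the filter at a mean of 10 units 7 of 26 and 2. Median-of-ratios scaling gave 3 higher and 2 lower, and DESeq2 3 and 1. Calls were spread unevenly over the lists. Those in the receptor, acute-phase, complement and interleukin-6 lists ran from 31.2% to 33.3%, and the inhibitor and IKK lists lay at 0 and 4.00%, below the 8.64% of all genes. With the filter the former lists ran from 33.3% to 50%, and the inhibitor and IKK lists lay at 12.5% and 12%, beside 17.0%. The difference between lists was not tested, and lists share genes.

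**Figure D5:**
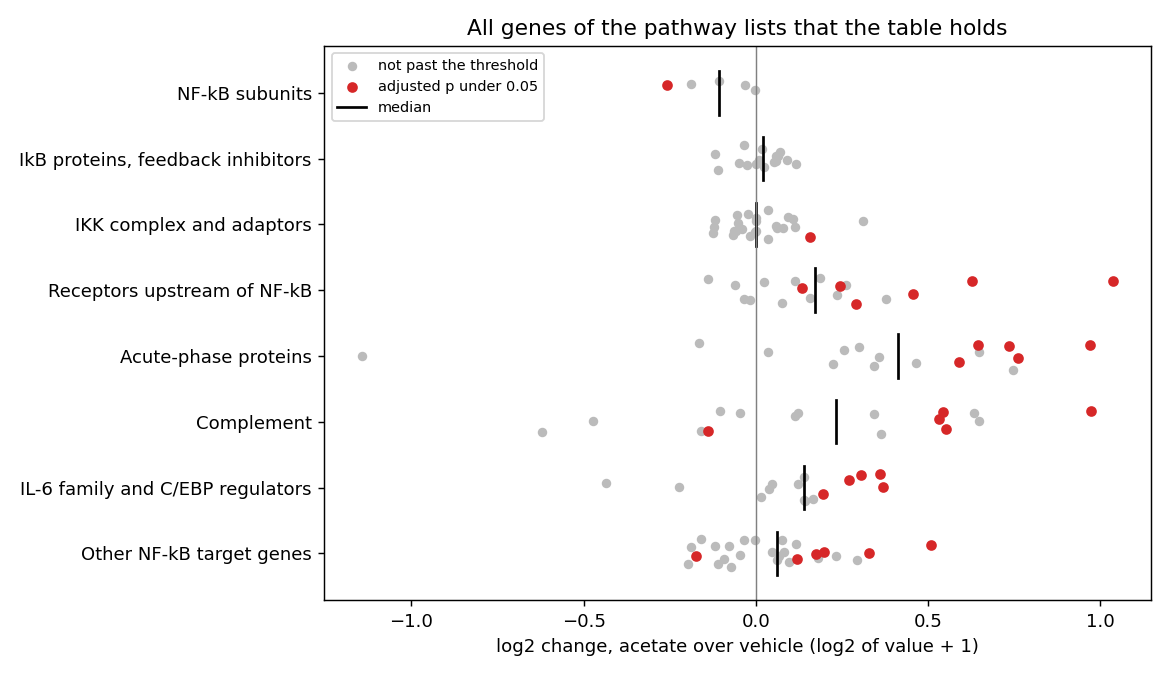
Log2 change of acetate over vehicle for every gene of the pathway lists that the table holds (points, red where the adjusted p was under 0.05 in limma with the block), with the median of each list (black bar). The medians are 0.41 for acute-phase proteins and 0.23 for complement, and 0.02 for IkB proteins and feedback inhibitors. With the filter at a mean of 10 units they are 0.62, 0.45 and 0.02, and with a pseudocount of 5 they are 0.25, 0.15 and 0.02.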

How the data were processed

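RNA-seq of 4T1 cells (4 acetate and 4 vehicle libraries, 5 mM and 48 h) was analysed from the deposited table. According to labels and methods, stranded poly-A libraries were aligned to GRCm38 and quantified per gene with STAR (the submitters' processing notes also list HTSeq; versions are not given in the sources used here). Whether counting used strand is not stated, so overlapping and paralogous genes may share reads. The values are a normalised signal: the authors scaled each library to a total of 20000000 and filtered out genes seen in too few libraries, and each of the 20189 genes was above 0 in at least 4. Such a filter can drop genes silent in most libraries. All values were whole multiples of 1 read (tolerance 0.1 read), giving 19.9 to 29.3 M reads per library. Genes under about 10 units rest on few reads.

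Identifiers were matched to GENCODE M21 (20004 of 20189 with a symbol), which also gave gene spans and exon lengths. The test was limma 3.58.1 in R 4.3.3 (two-sided, with a mean-variance trend). It was run over all genes on log2(value + 1), a scale that makes changes of low genes look smaller, with the replicate number as a block. A gene was called at a Benjamini-Hochberg adjusted p under 0.05. The block was used because the description labels give same-numbered libraries a common code. This choice, too, was made with earlier results of these data known. Deviations from the group means within a number correlated by 0.94, 0.66, 0.54 and 0.91 over 13292 genes. The study's own ranking was unpaired, and unpaired values are given. Alternatives were pseudocounts of 0.1 and 5, a filter at a mean of 10 units, median-of-ratios scaling, edgeR 4.0.16 and DESeq2 1.42.0 on recovered reads with the block, and leaving out each replicate. The fits were also run on simulated reads in which both libraries of a number had a common mean apart from the treatment effect. This does not test how well the pairing holds in these data.

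The genes and lists were chosen with earlier results of these data known. Besides the 10 genes, the text names in each list up to 4 genes with the smallest p among those with a mean of 10 units or more, and the 5 genes with the most similar profile. Promoter sequences were read from RefSeq (GRCm38.p6), and annotated untranslated bases were cut from all but the 30-base sites.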

Additional observations from a re-analysis of the deposited data

Results flagged for a closer look

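In groups of 4 libraries, the lowest or highest library of 40 genes in 80 groups was compared with the rest by its gap to the nearest library over the whole range, and the limit was Dixon's 95% value. There were 12 such libraries where chance gives about 4 (1 in 20), and 10 of the 12 were in replicate 1.

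Of the genes followed, Saa3 had its acetate replicate 1 at 18.1 units against 56.8 to 63.8 in the others (ratio 0.846). Nfkb2 had its vehicle replicate 4 at 2870.4 units against 5050.0 to 5334 (0.885).

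Among the other pathway genes, Tapbp was low in replicate 1 of vehicle (2059.8 against 4020.1 to 4149 units, 0.938) and of acetate (2394 against 4396 to 4724, 0.859). Bcl3, an atypical IkB protein gene, was low there too, in vehicle (176 against 338 to 366, 0.852) and in acetate (197 against 343 to 372, 0.832). Lifr was low in vehicle replicate 1 (26.0 against 114 to 130.2, 0.841) and Tnfrsf11a in acetate replicate 1 (23.5 against 99.1 to 112, 0.851). Plaur was high in replicate 1 of vehicle (3399 against 1896 to 2087, 0.873) and of acetate (2817 against 1763 to 1861, 0.907). Ptx3 was high in vehicle replicate 1 (54.2 against 16.3 to 21.1, 0.873). Ripk1 was low in acetate replicate 4 (604 against 726 to 749, 0.837).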

How the results depend on the processing

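The replicate block decided the calls. Without it, limma called 0 of the 9 genes, 0 of the 126 other pathway genes and 0 of all 20189 genes, against 4, 25 and 1744 with the pairing in the model. The direction of each of the 9 genes is the same in both fits, since the estimates do not change.

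Leaving out 1 replicate at a time gave 0 to 4 called genes of the 9, 8 to 23 of the 126 and 409 to 1662 of all genes. The lowest counts came without replicate 3. Icam1 was called only with all 4 replicates and lost its call also with a pseudocount of 0.1 (adjusted p = 0.0733), median-of-ratios scaling (0.0514) and DESeq2 (0.0718). Nfkb2 gained one with the filter at a mean of 10 units (0.0394). Over the leave-outs Nfkbia ran from -0.027 to 0.10 and Birc3 from -0.11 to 0.0026, so neither has a fixed direction. Icam1 ran from 0.21 to 0.41, Lcn2 from 0.45 to 0.75, C3 from 0.38 to 0.62 and Relb from -0.31 to -0.20.

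Over all genes DESeq2 called 1126 (653 higher, 473 lower) and edgeR 2400 (1314 higher, 1086 lower), and with median-of-ratios scaling the split was 1000 higher and 827 lower. Of 99 comparisons of the 9 genes with an alternative, 76 kept direction and call, 16 lost the call, 5 gained it and 2 changed sign. Saa3 rests on 9 to 98 reads per library and ran from 0.19 to 0.70. The causes of these shifts were not tested.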
